A study of Mus musculus with 24 samples.

Results

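The step from embryonic stem cells (ESCs) to neural progenitors (NPCs) was examined in slow/slow cells, mouse ESCs whose 2 copies of Polr2a both carry the R749H substitution. Polr2a encodes the catalytic subunit of RNA polymerase II, and the substitution was introduced as a form of the enzyme that elongates transcripts slowly. The members were the 3 slow/slow ESC libraries and the 3 slow/slow NPC libraries, 6 of the 24 poly(A)+ RNA-seq libraries of the series, chosen by their labels. Per the labels the ESCs were kept in 2i medium, to which the study's methods move them from serum and LIF, and in which inhibitors of MEK and GSK3 together with LIF hold cells in the naive pluripotent state. The NPCs were the same cells at day 7 of monolayer culture in N2B27, without the inhibitors or LIF. Per the study's methods, the slow/slow cells came from successive targeting rounds in the E14 ESC line, RNA came from 3 independent differentiation experiments, and no gate or sort was applied at day 7. The labels name no clone, so the slow/slow libraries describe a single genotype and not a set of independent lines. WT cells at the same stages, 3 libraries each, serve below as the comparison. Per the labels, slow/slow cells were plated more densely than WT cells at the start of differentiation, so genotype and plating density cannot be told apart in comparisons with WT that involve NPCs.

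Exit from naive pluripotency follows a known order. When MEK inhibition and LIF are withdrawn, ESCs silence a set of naive transcription factors, pass through a formative state like that of the early post-implantation epiblast, and then, without BMP and Nodal signals, acquire neural identity with Sox and Pax factors, N-cadherin and Notch signalling. Exon choice is reset on the same path, in part by the exchange of splicing repressors such as Ptbp1 for their neural relatives, and very short exons (microexons) are prominent among the exons that neural cells include.

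Library totals ran from 35249977 to 77285813 counts over the 6 slow/slow libraries. Replicates of a stage correlated at 0.994 or more on the log2 scale across genes. NPC library 1 was nearer to the WT NPC libraries (0.961 to 0.962) than NPC libraries 2 and 3 were (0.9533 to 0.9555). Expression is given as CPM, counts scaled to a common TMM-adjusted library total, which compare a gene between libraries but not genes with each other. A log2 change is the NPC level over the ESC level with its standard error (SE), and a gene was called changed at an FDR under 0.05 in edgeR's quasi-likelihood test over 16627 genes. In bulk RNA, fewer cells of a type and less RNA per cell cannot be told apart. Whether the counts used the strand was not stated, so values are uncertain for named genes that overlap another in the annotation, among them Col4a1 with Col4a2, Stat3, Ptbp1, Tubb3, Stra6, Hoxa2, Six6, Gata3, Bmp4, Dnmt3l, Smarcd3, L1cam, Tk1, Pfkp, Cyp51, Habp2 and Tmem154.

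Of the 16627 genes, 10358 (62.3%) changed between slow/slow ESCs and slow/slow NPCs. Transcripts of 5636 genes (33.9%) were higher in NPCs and those of 4722 (28.4%) lower. Among genes that changed at least 2-fold, 3642 (21.9%) rose and 1523 (9.16%) fell, and over 8-fold changes numbered 1348 up and 301 down. In WT cells the same step raised 34.0% of genes and lowered 31.6%. Both genotypes moved 7827 genes in the same direction and 339 in opposite directions. The stage change itself differed between slow/slow and WT cells for 4091 genes (24.6%), more positive in slow/slow cells for 2262 (13.6%) and more negative for 1829 (11.0%). With only the 12 ESC and NPC libraries in the fit this count was 7534, and the balance turned, with 3518 more positive and 4016 more negative. Polr2a itself (chr11:69733997-69758637 of GRCm38, minus strand) was counted at 763, 674 and 683 CPM in slow/slow ESCs and at 380, 364 and 380 CPM in NPCs, a fall of 0.91 on the log2 scale (SE 0.16, FDR 6.9e-05). Every NPC library was below every ESC library, and the WT change was -1.23, with a difference between genotypes of 0.31 that was not called (FDR 0.355). Such separation held for most of the 16627 genes, with all NPC libraries above all ESC libraries for 6651 and below them for 5952.

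Naive pluripotency genes fell by day 7 (the plot of CPM in each library). Of 21 tested naive genes, 18 fell, 1 rose and 2 were not called, with a median log2 change of -2.70. Counts for this list and those below stand against 33.9% of all genes higher and 28.4% lower in NPCs. Esrrb, an orphan receptor that sustains self-renewal, dropped from 1053, 1060 and 1028 CPM to 104, 91.7 and 83.2 (log2 change -3.49, SE 0.14, FDR 3.03e-14). The homeodomain factor Nanog went from 889, 918 and 950 CPM to 125, 142 and 119 (-2.84, SE 0.15, FDR 2.27e-12). Groups did not overlap for either gene, as for most tested genes, and the NPC libraries lay close together. Prdm14, which keeps naive cells hypomethylated, showed the largest fall of the list at -4.39 (65.7, 63.8 and 68.8 CPM to 3.25, 3.53 and 2.66), and Klf4, Klf2 and Zfp42 fell by 3.53, 2.92 and 2.61. Gbx2 alone rose, from 45.2 to 50.6 CPM in ESCs to between 116 and 126 CPM in NPCs, a change of 1.30 (SE 0.54, FDR 0.0436) whose call was lost when any 1 of the 6 libraries was left out. The WT median of the list was -1.44. For 12 of the 21 genes the change was more negative in slow/slow cells, and for 0 more positive.

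**Figure D1:**
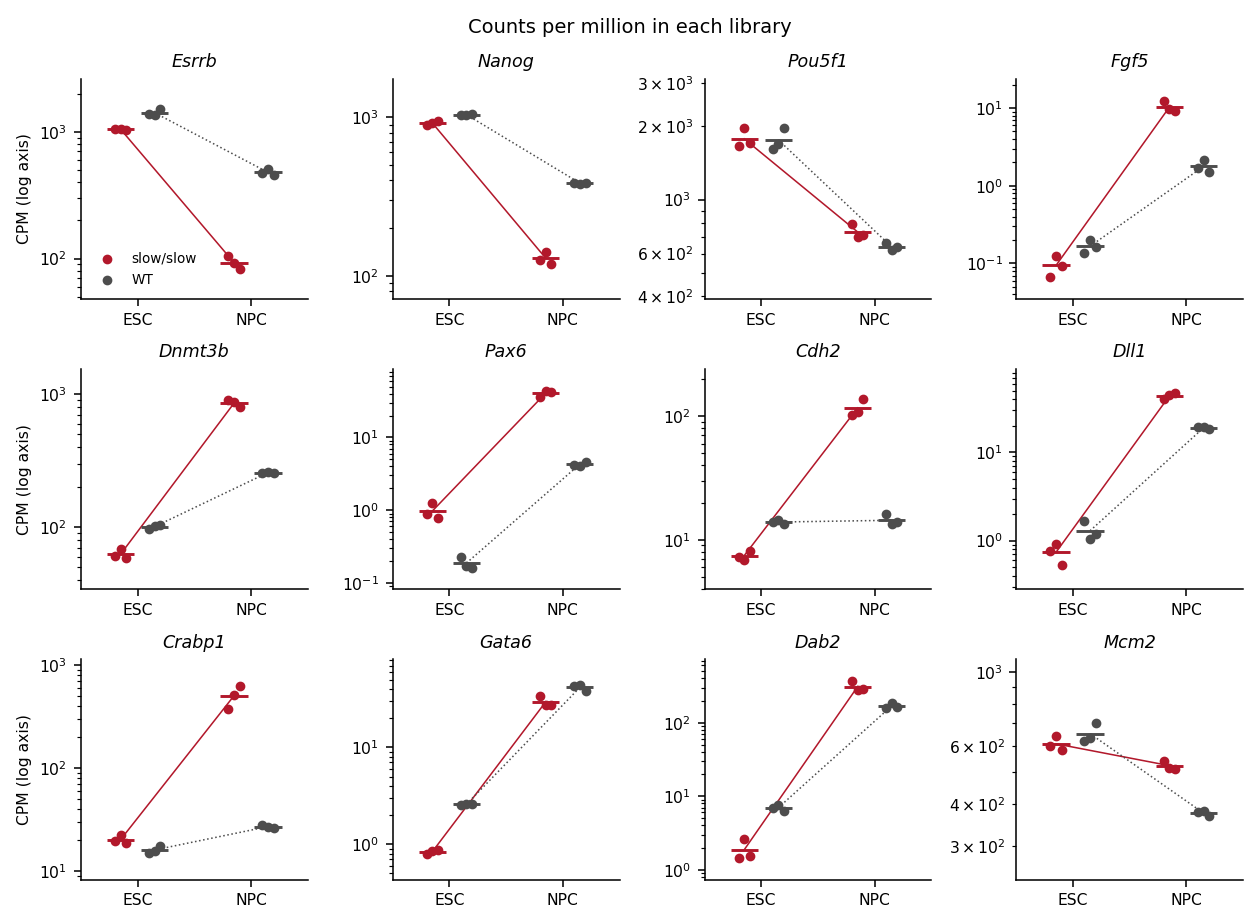
TMM-scaled CPM (log axis) of 12 genes in each ESC and NPC library of slow/slow cells (red) and WT cells (grey). Points are libraries, short bars are means of 3, and lines join the means. Esrrb and Nanog fell further in slow/slow cells, Cdh2 and Crabp1 rose by 3.97 and 4.65 on the log2 scale in slow/slow cells against 0.04 and 0.75 in WT, and Mcm2 changed by -0.22 without a call.

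Factors of pluripotency in general moved both ways. Of 14 general pluripotency genes, 6 rose and 5 fell, with a median of 0.02 (-0.03 to 0.08 across the alternatives tried). Pou5f1, the core pluripotency factor Oct4, was still counted at 791, 701 and 716 CPM in slow/slow NPCs, after 1662, 1966 and 1702 CPM in ESCs (-1.27, SE 0.22, FDR 5.55e-05). Sox2, needed in both states, fell by 0.64 (323 to 327 CPM against 204 to 215), and Sall4 by 0.38, a call lost without NPC library 3 and under upper-quartile scaling. Lin28a, an RNA-binding repressor of let-7 maturation, rose by 2.34 and the chromatin-associated factor Utf1 by 2.61. In the libraries labelled NPC the naive markers Nanog, Zfp42 and Esrrb were thus at a fraction of their ESC level, while Pou5f1 was still well counted.

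Genes of the formative and primed epiblast mostly rose. Of 17 tested, 14 rose and 2 fell, and the median change was 3.50 on the log2 scale against 1.35 in WT. Fgf5, a growth factor of the post-implantation epiblast, went from 0.0678, 0.123 and 0.0929 CPM to 12.2, 9.59 and 9.12, the largest rise of the list (6.73, SE 0.29, FDR 9.24e-14). All NPC libraries were far above all ESC libraries. Pou3f1, which drives the epiblast towards neural fate, rose by 4.92 and Otx2, an anterior epiblast factor, by 4.08. The kinase gene Pim2 rose from 20, 20.2 and 19.4 CPM to 438, 464 and 449. The Nodal inhibitor Lefty2 fell by 1.37 and Nodal itself by 1.00.

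Of 9 genes of DNA methylation and demethylation, 5 rose and 4 fell, and the DNMT3 genes among them were also on the epiblast list. The de novo methyltransferase Dnmt3b rose from 61, 68.6 and 58.8 CPM to 898, 873 and 798 (3.77, SE 0.37, FDR 1.99e-08). Its partners rose too, Dnmt3a by 2.60 and the cofactor Dnmt3l by 4.34. The maintenance enzyme Dnmt1 fell by 0.56, its recruiter Uhrf1 by 1.23 and the demethylating dioxygenase Tet2 by 2.37. The median over the 9 genes was 0.38.

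Neural progenitor genes rose broadly. Of 34 tested neural progenitor genes, 30 rose and 1 fell, with a median change of 3.05 against 1.27 in WT, and the change was more positive in slow/slow cells for 17 and more negative for 1. Pax6, a paired-homeodomain determinant of neuroectoderm, rose from 0.882, 1.27 and 0.774 CPM to 36.4, 43.8 and 42.4 (5.36, SE 0.30, FDR 4.42e-12). Sox3, a SoxB1 factor of early neuroectoderm, rose from 5.42 to 6.22 CPM to between 29.9 and 38.9 CPM (2.63, SE 0.40). Both genes were above all ESC libraries in every NPC library. Cdh2, the N-cadherin that replaces E-cadherin during neural induction, went from 7.26, 6.91 and 8.14 CPM to 103, 109 and 138 (3.97, SE 0.39, FDR 2.91e-08). The growth factor gene Ptn showed the largest rise of the list at 6.80. The intermediate filament gene Nes rose by 1.61 and the Notch target Hes5 by 3.44, to no more than 1.65 CPM. Meis2, a cofactor of Pax6 and Hox proteins, rose by 2.72. Ncam1, the neural cell adhesion molecule, was the exception, falling by 0.71 (26.7, 25.3 and 24.5 CPM to 14.1, 15.9 and 16.9). Sox1, another progenitor marker, was not among the genes tested.

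Proneural factors and neuronal genes rose as well, for 22 of 30 tested with 2 falling and a median of 1.87. Insm1, a zinc-finger factor of neurogenic progenitors, was among the largest changes of all genes, from 0.158, 0.143 and 0.155 CPM to 30.9, 33.1 and 33 (7.72, SE 0.36, FDR 3.3e-13). Ebf2, a factor of differentiating neurons, rose by 4.90, to at most 2.14 CPM. Neuronal markers moved both ways. Rbfox3 (NeuN) rose by 1.85 to at most 0.789 CPM. Dcx, a microtubule-associated protein of migrating neurons, was counted at 1.15, 3.65 and 4.02 CPM in NPCs against 0.712 to 0.859 CPM in ESCs (1.81, FDR 0.026), and its call was lost without NPC library 2 or 3 or without any 1 ESC library. Tubb3 (111, 135 and 107 CPM to 87.3, 97.2 and 104) was not called (-0.29, FDR 0.438), while the stathmin genes Stmn2 and Stmn3 fell by 0.56 and 1.18. Map2 was not among the genes tested.

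In the Notch pathway 11 of 17 genes rose and 3 fell, with a median of 1.30 against 1.23 in WT. Among receptors, Notch3 rose from 38.1, 36.1 and 32.1 CPM to 193, 205 and 208 (2.51, SE 0.16, FDR 4.98e-11), whereas Notch1 fell by 0.44 and Notch4 by 2.52. The ligand Dll1 went from 0.769, 0.92 and 0.526 CPM to 40.5, 44.3 and 46.9 (5.85, SE 0.31). Of the effectors, Hes5 rose and Hes1 fell by 0.95. In the retinoic acid pathway 14 of 20 genes rose and 1 fell. The binding proteins Crabp1 (19.4, 22.4 and 18.7 CPM to 374, 514 and 633) and Crabp2 rose by 4.65 and 6.37, the degrading enzyme Cyp26a1 by 6.59 and the retinol transporter Stra6 by 4.87. Aldh1a2, which makes retinoic acid, was the gene that fell (-2.08).

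Genes that mark position along the neural axis changed in both directions. Of 37 tested Hox genes, 16 rose and 12 fell. The rises included genes of the hindbrain paralogue groups. Hoxb1 went from 0.0904, 0.184 and 0.217 CPM to 22, 26.7 and 28.6 (7.31, SE 0.71), Hoxb2 rose by 6.64 and Hoxa2 by 3.58. Hoxc12, near the posterior end of its cluster, fell by 6.34, from 3.44 to 4.95 CPM in ESCs to at most 0.0739 CPM. The rhombomere factor Egr2 (Krox20) also rose, by 6.19, to 4.67, 4.15 and 7.32 CPM. Among 26 regional genes, 15 rose and 6 fell, with a median of 2.20, or 2.03 with the 2 genes without a read in ESCs set to their lower bound, and 3.42 over the 22 genes that pass the filter with only the groups compared. Six6, of the eye field, had no read in any slow/slow ESC library and reached 2.99, 3.87 and 4.53 CPM, at least 159-fold above a floor of 3 counts over the 3 ESC libraries. The anterior factor Hesx1 fell by 2.20. Cdx1, a posterior homeobox gene and a known target of Wnt signalling, fell from 221, 198 and 197 CPM to 1.55, 1.89 and 2.02 (-6.83, SE 0.23, FDR 3.25e-15). In the dorsoventral axis, with 13 of 19 genes higher and 5 lower, Gsx2 of the ventral telencephalon fell by 2.71, and Foxa2, shared by the floor plate and endoderm, rose by 5.39. Six6 of the eye field and genes of the hindbrain thus rose in the same libraries, and the bulk counts do not say whether in the same cells. Summed over the 26 regional genes, the level was 251 to 281 CPM in ESCs and 127 to 159 CPM in NPCs.

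Signalling readouts changed in the step in which the inhibitors and LIF were removed. Of 10 LIF and STAT3 response genes, 6 fell and 0 rose, with a median of -0.53. In WT cells 4 fell and 4 rose, with a median of 0.02, and 5 changes were more negative in slow/slow cells. In slow/slow cells the feedback inhibitor Socs3 fell from 130, 137 and 104 CPM to 27.8, 24.6 and 25.8 (-2.25, SE 0.28), Stat3 by 1.69 and Bcl3 by 3.95. Readouts of the MAPK cascade rose for 13 of 18 genes and fell for 1. The phosphatases Dusp4 and Dusp6, which switch off ERK kinases, rose by 5.44 and 4.61, the immediate early gene Egr1 by 4.26, and Etv5 fell by 0.65. Dusp6 stood at 5.56, 8.1 and 5.36 CPM in ESCs and at 152, 157 and 157 CPM in NPCs, without overlap. Beta-catenin readouts fell for 8 of 16 genes and rose for 5. Axin2 fell by 1.57, Sp5 by 4.54 and Notum, an extracellular Wnt inhibitor, by 3.63, while Lef1 rose by 4.26 and the Wnt antagonist Dkk1 by 3.99. Of 17 BMP and Id genes, 6 rose and 4 fell, with Id2 up by 5.16 (1.24 to 1.47 CPM against 43.3 to 57.8) and the ligand Bmp4 down by 2.39. Genes of this list were called about as often as all genes (62.3%).

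Adhesion and matrix genes changed in the same step. Among 16 epithelial junction genes, 10 rose and 3 fell. Leaving out NPC library 1 left 2 falls, and leaving out any other of the 6 libraries left 1. The E-cadherin gene Cdh1 fell from 934, 866 and 895 CPM to 469, 388 and 376 (-1.13, SE 0.31, FDR 0.00345), so its transcript was still present where that of Cdh2 had risen. The claudin gene Cldn6 rose by 4.91 and Epcam by 2.15. Of 20 mesenchymal and extracellular matrix genes, 14 rose and 1 fell. The collagen IV genes Col4a1 and Col4a2, whose products form basement membrane, rose by 6.52 and 6.71, and Zeb2, a repressor of Cdh1, by 5.47. Fn1 (fibronectin) was the gene that fell, by 1.20. Among 34 neural adhesion and guidance genes, 24 rose and 6 fell, with a median of 2.47 against 1.07 in WT. St8sia2, the sialyltransferase that builds polysialic acid on NCAM, rose from 0.203, 0.205 and 0.217 CPM to 5.52, 6.85 and 8.4 (5.04, SE 0.35). The axon guidance receptor gene Robo2 rose by 4.94, the cell adhesion genes L1cam and Nfasc by 3.08 and 2.44, and the guidance genes Slit2 and Nrp2 fell by 2.08 and 1.21.

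**Figure D2:**
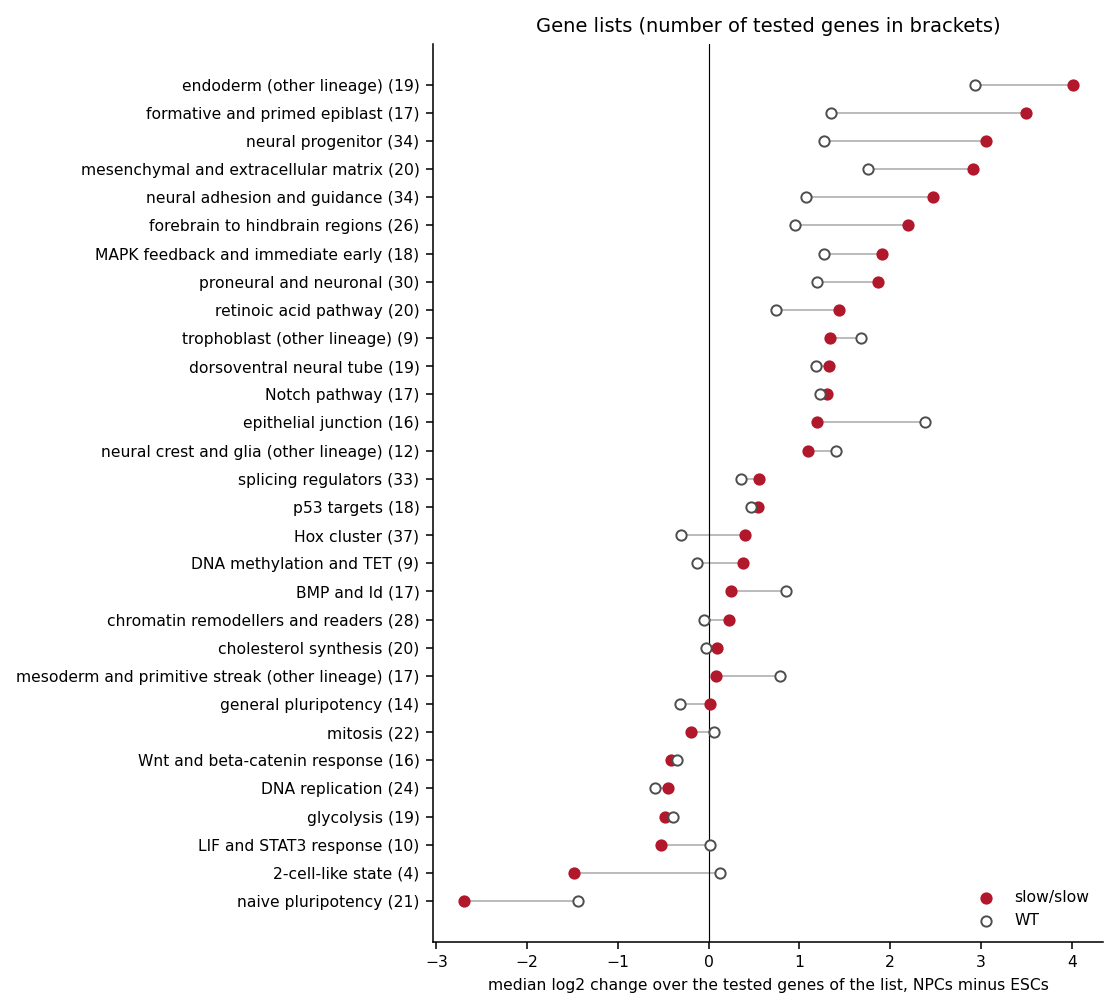
Median log2 change from ESCs to NPCs over the tested genes of each list (numbers in brackets), in slow/slow cells (filled red) and WT cells (open grey). The neural progenitor list stood at 3.05 in slow/slow and 1.27 in WT cells, the naive pluripotency list at -2.70 and -1.44, and the epithelial junction list at 1.19 and 2.38.

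Markers of other lineages rose in the same NPC libraries. Of 19 endoderm genes, 16 rose and 1 fell, with a median of 4.01, unchanged with Ttr at its lower bound, against 2.93 in WT. Summed over the list, the level went from between 30.2 and 31 CPM in ESCs to between 936 and 1232 CPM in NPCs, highest in NPC library 1. No member was at 0 in an NPC library. Among defining factors, Sox17 was at 23.9, 18.6 and 18.4 CPM (5.18), Gata4 at 79.6, 60.2 and 65.6 CPM (2.66) and Gata6 at 34, 27.3 and 27.6 CPM (5.14). Dab2, an endocytic adaptor of visceral endoderm, rose by 7.35, and Cubn, the cubilin receptor that it serves, from 0.249, 1.88 and 0.186 CPM to 575, 429 and 415 (9.14, SE 0.62, FDR 8.72e-11). Ttr, a thyroid hormone carrier made by visceral endoderm, had no read in slow/slow ESCs and 2.42, 2.31 and 1.45 CPM in NPCs, at least 86-fold more. These markers rose in the same libraries as the neural genes, and their part in the other changes was not tested.

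Markers of mesoderm, trophoblast and neural crest moved both ways. Of 17 mesoderm and primitive streak genes, 6 rose and 6 fell, with a summed level of 33.3 to 38.5 CPM in ESCs and 67.2 to 80.6 CPM in NPCs. The streak factor T fell by 2.83 and Mesp1 stayed at or below 0.142 CPM in all 6 libraries, while the signalling gene Fgf8, also made by the neural tube, rose by 4.86. Of 9 trophoblast genes, 5 rose and 2 fell, with summed levels of 18.7 to 24.5 CPM in ESCs and 36 to 44.9 CPM in NPCs. Cdx2 fell by 1.41, Gata3 rose by 3.60, and Elf5 was at or below 0.266 CPM throughout. Of 12 neural crest and glial genes, 7 rose and 1 fell (a median of 1.09, or 0.86 with Aqp4 at its lower bound), with summed levels of 85.9 to 89.6 CPM in ESCs and 60.2 to 67.1 CPM in NPCs. Sox10 rose by 3.38 to between 1.65 and 2.28 CPM, and Mitf fell by 4.20.

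Among genes with at least 5 CPM in NPCs, no overlap of the stages and a call in every fit without 1 library, the 12 largest rises were those of Tmem154, Spink3, Cubn, Habp2, Car4, Tcfec, Itgb8, Insm1, A930038C07Rik, Enpep, Wnt8a and Enpp2. Tmem154 had no read in slow/slow ESCs and 8.02, 4.53 and 3.7 CPM in NPCs, at least 226-fold above the floor. Car4, a membrane carbonic anhydrase, rose by 8.59 (SE 0.50) and by 10.08 in WT cells. Wnt8a, a Wnt ligand of the early embryo, rose from 0.294, 0.757 and 0.0929 CPM to 67.1, 81.4 and 74.7 (7.50, SE 0.83) in slow/slow cells and by 3.28 in WT. Enpep, a membrane aminopeptidase gene, rose by 7.50 to between 4.76 and 8.13 CPM. Itgb8, an integrin subunit gene, reached 11.8, 13.9 and 20.9 CPM from at most 0.123 CPM.

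By the same rule, with the 5 CPM in ESCs, the 12 largest falls were those of Ly6a, Trpm1, Serpinb1a, Aqp3, Acsm4, Cdx1, Htr5a, Tlx2, Cnga4, Pou2f3, Dmgdh and Myh13. Ly6a (Sca-1) went from 38.9, 47.1 and 46.4 CPM to 0.207, 0.143 and 0.197 (-7.87, SE 0.33, FDR 7.96e-14), while the WT change was -3.52. Aqp3, a water and glycerol channel, fell from 360, 346 and 349 CPM to 2.38, 2.2 and 3.15 (-7.10), and the cation channel gene Trpm1 by 7.56, close to its WT change of -8.52. In WT NPCs Aqp3 was still at 36.7, 38.5 and 38.2 CPM.

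The next set was drawn from genes called both in slow/slow cells and in the comparison with WT. They also had at least 5 CPM in a slow/slow group and no overlap of the slow/slow stages. The 10 whose stage change departed most from WT all rose in slow/slow cells. Genes that changed in WT cells alone could not enter this set. Vrtn, which sets vertebral number, rose from 0.588, 0.92 and 0.774 CPM to 43.5, 40.8 and 37.6 (5.73, SE 0.50) and fell by 1.14 in WT, a difference of 6.87 (SE 0.65, FDR 3.85e-07). Rfx4, a regulator of neural tube patterning and cilia, rose by 4.47 and fell by 1.63 in WT. The set also held Btbd17, Nsg2, Egr2, St8sia2, 2810459M11Rik and Enpp2. Tmem154 entered it only by a fitted value over slow/slow ESCs without a read, which does not measure its size, and its call was lost without slow/slow ESC library 1 or 2, without WT ESC library 1, and with only the groups compared. That the slow/slow stages did not overlap for any of the 10 follows from the rule.

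Genes of growth and metabolism changed within narrower limits. Of 24 DNA replication genes, 14 fell and 0 rose, and all the falls were under 2-fold. In WT cells 19 fell and 1 rose, and for 0 of the 24 was a difference between the genotypes called. In slow/slow cells the thymidine kinase gene Tk1 fell by 0.93, Mcm10 by 0.91 and the helicase subunit Mcm3 by 0.62. Its partners Mcm2 (599, 644 and 581 CPM to 541, 516 and 512, -0.22, FDR 0.31) and Mcm4 (-0.31, FDR 0.151) were not called. Of 22 mitotic genes, 3 fell and 0 rose, among them Birc5 (-0.84), and Ccnb1 was not called (-0.29, FDR 0.106). Across the alternatives the falls numbered 10 to 20 for replication and 2 to 14 for mitosis. Of 19 glycolysis genes, 5 rose and 8 fell. The glucose transporter gene Slc2a1 rose from 201, 205 and 179 CPM to 1102, 1138 and 1155 (2.54, SE 0.14) and Pdk1, whose kinase holds back pyruvate oxidation, by 2.42, while the hexokinase gene Hk1 and the phosphofructokinase gene Pfkp fell by 2.14 and 2.09. For cholesterol synthesis 6 of 20 rose and 3 fell, with Cyp51 up by 0.81 and Ebp down by 1.13. For p53 targets 10 of 18 rose and 2 fell, with the pro-apoptotic gene Pmaip1 up by 2.32 and the cell cycle inhibitor gene Cdkn1a down by 1.50. Over all genes 62.3% were called, near the shares of the replication, glycolysis and p53 lists and above those of the mitosis and cholesterol lists. The 4 tested genes of the 2-cell-like state, a rare early-embryo state of ESC cultures, all fell, with Zscan4c at -2.41 and Zscan4d at -1.52. In WT cells 0 of the 4 were called lower and 1 was called higher. Zscan4 genes have near-identical copies, so their values are uncertain.

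Of 33 splicing regulators, 20 rose and 2 fell. In either direction, this list and the chromatin list below were called about as often as all genes (62.3%). Ptbp1, which represses neural exons, fell by 0.33 (FDR 0.0236), a call lost without ESC library 2 (0.0653) and under upper-quartile scaling (0.0559). Its neural paralogue Ptbp2 rose from 35.3, 32 and 31.7 CPM to 88.4, 106 and 94.6 (1.54, SE 0.08, FDR 2.12e-12). The epithelial regulator Esrp1 had the largest rise of the list, from 0.95, 1.51 and 1.05 CPM to 37.8, 36.3 and 30.7 (4.88). Srrm4, the activator of neural microexons, was not called (3.75, 3.62 and 3.81 CPM to 3.4, 4.18 and 5.03). Elavl2 fell by 0.46, a call lost without ESC library 1 or 3, without NPC library 1 or 3, and under upper-quartile scaling. Among 28 chromatin remodellers and readers, 11 rose and 7 fell. The helicase genes Chd5 and Chd7 rose by 2.14 and 1.95, and the BAF ATPase gene Smarca2 by 1.79, with its paralogue Smarca4 not called (0.24, FDR 0.0691). The BAF subunit gene Smarcd3 fell by 1.98 and the Polycomb gene Eed by 1.09.

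Changes differed with gene length. Among the 530 tested genes that span over 300 kb, 47.4% were at least 2-fold higher in slow/slow NPCs and 6.79% at least 2-fold lower, with a median change of 1.23. Genes under 10 kb had 20.6% and 10.9%, with a median of -0.07 over 4294 genes. In WT the medians of the same groups were 0.60 and -0.03, and 34.3% of the longest genes were at least 2-fold higher. Over the genes of the longest group, the median difference between the slow/slow and WT changes was 0.36, against 0.050 over all genes.

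**Figure D3:**
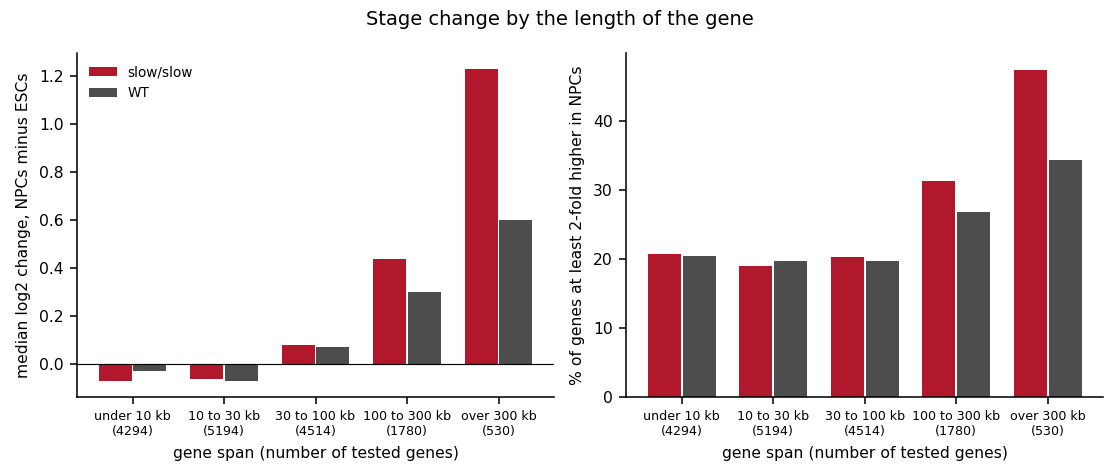
Left, median log2 change from ESCs to NPCs by the genomic span of the gene, for slow/slow (red) and WT cells (grey). Right, percentage of tested genes that were at least 2-fold higher in NPCs with an FDR under 0.05. In genes over 300 kb the median was 1.23 in slow/slow and 0.60 in WT cells, and under 10 kb it was -0.07 and -0.03.

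Splicing was followed in the same 6 libraries as percent spliced in (PSI), the share of transcripts that include an exon. A cassette exon was called when mean PSI differed by over 10 points with a posterior probability over 0.95 of that sign. Of 20056 exons with enough reads in all 6 libraries, 153 (0.763%) changed between slow/slow ESCs and NPCs, in 146 genes. Inclusion rose for 83 (0.414%) and fell for 70 (0.349%). The groups did not overlap at any of the 153, since the call rests on the same values. In WT cells 519 of 21420 exons (2.42%) changed, 390 with more and 129 with less inclusion. Differences over 20 points were found for 23 exons in slow/slow and 155 in WT cells. The smallest called difference was 10.01 points, and a further 94 exons with differences over 10 points missed the probability. Of 144 host genes with a test of expression, 37 rose and 51 fell, where 62.3% of all genes were called, and 19 changed at least 2-fold. Their median log2 change was -0.06.

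The median length of the called exons was 91 bases against 115 for all tested exons and 98 for tested exons with a mean PSI between 10 and 90. It was 105 bases for the exons that gained inclusion and 83 for those that lost it. Microexons of at most 27 bases made up 18 of the 153 (11.8%). Their share was 1.8% of all tested exons and 3.86% of those with a mean PSI between 10 and 90. In WT cells 36 of 391 tested microexons were called. The 18 in slow/slow cells were 4.97% of the 362 tested, 10 with more and 8 with less inclusion. For 7 of the 18 (Supt5h, Clasp2, Idh3g, the 9-base exon of Ptk2, Dnm2, Vps29 and Prune2) the deposited table holds no balance score, and that filter was not applied. Of the called exons, 57.5% had a length divisible by 3, against 53.8% of the exons with intermediate PSI. Exons that gained inclusion lay between introns with medians of 2258 bases upstream and 1971 downstream, and those that lost inclusion between introns of 632 and 752 bases, over the 66 and 52 exons with a single pair of flanks. The medians were 1551 and 1474 bases for all tested exons, and 1654 and 1741 for those with intermediate PSI.

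Some of these exons are shown because they carry large changes or lie in paralogous genes, a choice made after their values were seen. Each is written 5′ to 3′ in the sense of the gene with the exon in capitals and 15 bases of each neighbouring exon of the spliced transcript in lower case, from the GRCm38 genome with GENCODE transcripts. The 12-base exon of Supt5 (named Supt5h in the splicing table) lies at chr7:28330018-28330029 (minus strand), that of Dnm2 at chr9:21490658-21490669 (plus), the 24-base exon of Clasp1 at chr1:118541675-118541698 (plus), the 3-base exon of Clasp2 at chr9:113887045-113887047 (plus), the 18-base exon of Macf1 at chr4:123364057-123364074 (minus), that of Dst at chr1:34296742-34296759 (plus), and the 34-base exon of Ptbp2 at chr3:119724612-119724645 (minus), all within coding sequence.
Supt5: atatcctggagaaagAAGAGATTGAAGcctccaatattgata
Dnm2: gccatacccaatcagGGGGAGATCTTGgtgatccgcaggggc
Clasp1: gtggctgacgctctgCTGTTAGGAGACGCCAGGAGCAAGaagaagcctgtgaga
Clasp2: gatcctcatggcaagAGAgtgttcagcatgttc
Macf1: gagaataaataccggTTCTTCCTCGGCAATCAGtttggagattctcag
Dst: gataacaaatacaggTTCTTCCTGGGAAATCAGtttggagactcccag
Ptbp2: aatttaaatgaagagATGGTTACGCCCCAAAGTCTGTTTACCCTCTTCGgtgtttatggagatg

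The largest change of any exon was in Supt5, a subunit of the DSIF complex that binds RNA polymerase II and controls its pausing and elongation. Its 12-base microexon was included at 93.1, 91.9 and 93.4% in slow/slow ESCs and at 50.6, 48.8 and 52.4% in NPCs, a loss of 42.2 points with at least 329 reads in every library. All NPC values lay about 40 points under the ESC values. WT cells lost 26.9 points, and the difference of -15.4 was called (FDR 0.0011, limma). The gene's expression fell by 0.39 on the log2 scale.

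Dnm2 encodes the GTPase that cuts endocytic vesicles from the membrane. Its microexon rose from 73.7, 72.8 and 77.3% to 92.4, 92.7 and 91.7%, by 17.7 points, and by 26.8 in WT. Clasp1 and Clasp2 are paralogous proteins that stabilise microtubule plus ends, and their microexons moved in opposite directions. That of Clasp1 went from 21.0, 20.7 and 26.1% to 50, 41.9 and 57% (27 points, 25.2 in WT). The 3-base exon of Clasp2, a single codon, fell from 67.9, 59.7 and 69.5% to 40.5, 50.9 and 37.9% (-22.6 points), whereas WT changed by -2.4 (difference -20.2, FDR 0.0271, limma).

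Macf1 and Dst, paralogous giant spectraplakins that cross-link actin and microtubules, carry homologous 18-base exons that match at 16 of 18 bases. The exon of Macf1 lost inclusion, from 92.3, 88.5 and 88.4% to 76.7, 72.2 and 75.4% (-14.9 points, WT -3.1), and that of Dst gained it, from 6.6, 1.9 and 8.4% to 17, 16 and 18.5% (11.5 points, WT 21.0). Each gene's groups were separate. Both microexons of the focal adhesion kinase gene Ptk2 gained inclusion, by 17.1 points for the 9-base and 15.1 for the 21-base exon. Of the remaining microexons, those of Prune2, Vps29, 2410002O22Rik, Fip1l1 and Idh3g gained and those of Gon4l, Mark3, 5830417I10Rik, Diap1 and Ctnnd1 lost inclusion. Idh3g, a subunit of mitochondrial isocitrate dehydrogenase, gained 10.5 points in slow/slow and 34.0 in WT cells.

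**Figure D4:**
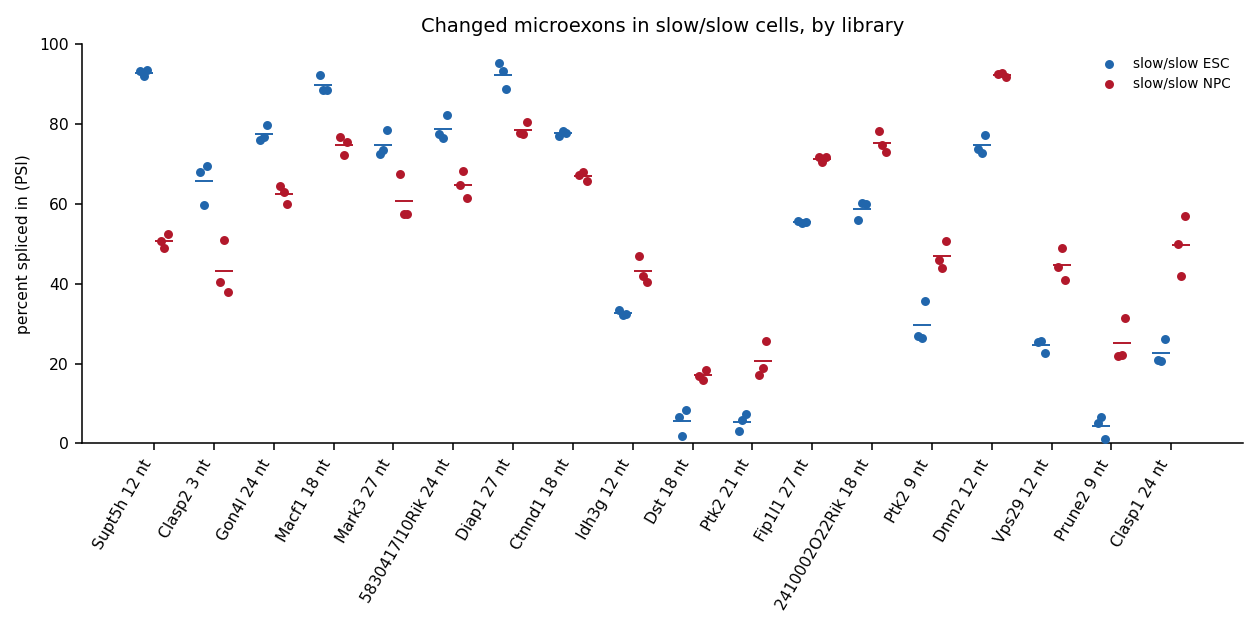
Percent spliced in (PSI) of the 18 changed exons of at most 27 bases in the 3 slow/slow ESC (blue) and 3 slow/slow NPC libraries (red), ordered by the difference. Points are libraries and bars means. The 12-base exon of Supt5h went from 92.8% to 50.6%, and the 24-base exon of Clasp1 from 22.6% to 49.6%.

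Among longer exons the largest gains were in Tnip1 (46.3, 39.3 and 44.0% to 72.5, 79.4 and 71.2%, 31.2 points), a ubiquitin-binding inhibitor of NF-kappaB signalling, and Ncoa2, a nuclear receptor coactivator (27.4 points). Exons of Sbf2, Tada3, Dennd4c, Myo9b and Dock6 gained between 22.7 and 24.3 points. Tada3 is a subunit of histone acetyltransferase complexes, and its exon gained 23.3 points in slow/slow and 23.1 in WT cells. Dock6, an activator of small GTPases, went the other way. Its exon rose from 51.7, 41.7 and 49.7% to 68.4, 66.7 and 76.2% in slow/slow cells and fell from 81.4, 84.9 and 86.4% to 70.0, 71.2 and 68.5% in WT (difference of the changes 37.1, FDR 2.02e-06, limma).

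The largest losses after Supt5h were in Arhgap17, a GTPase-activating protein (66.1, 63.8 and 63.1% to 32.9, 26.6 and 30.5%, -34.3 points), and Uspl1, a SUMO protease (-30.8 points). Among exons longer than 27 bases these were followed by Myo5a, an organelle motor whose exon fell from 95.3, 100.0 and 100.0% to 67.3, 71.5 and 80.8%, then Akap11 and the mechanosensitive channel gene Fam38a (Piezo1), with losses of 22.3 and 22.1 points. Akap11, a kinase-anchoring protein, lost 22.3 points in slow/slow and 1.2 in WT cells (96.2, 93.2 and 95.7% to 73.4, 71.2 and 73.3% in slow/slow cells). The lists of splicing regulators, chromatin remodellers and adhesion genes held a single called exon, in Ptbp2. Its 34-base exon, whose skipping shifts the reading frame and which Ptbp1 represses, rose from 77.5, 81.4 and 89.2% to 92.1, 95 and 94.7% (11.2 points, WT 0.0). Without ESC library 1 the difference was 8.6 points and the call was lost.

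Of the 153 exons, 143 could be measured in WT too, where 125 changed with the same sign, 70 of them as called changes, and 3 were called in the opposite direction. A test of the difference between the genotypes (limma on the logit of the reads) called 320 of 2306 exons (13.9%), with a change more positive in slow/slow cells for 60 and more negative for 260. They included 39 of the 153, 28 with a difference in the direction of the slow/slow change and 11 against it. The 153 were chosen on their slow/slow change, which favours the first kind. The other 281 differing exons were not called in slow/slow cells, and 205 of those were called in WT. Among them were exons that gained inclusion in WT cells with no called change in slow/slow cells. That of Ktn1, a kinesin-binding protein, was at 24.3, 21.6 and 22.3% in slow/slow ESCs and 20.3, 23.3 and 16.2% in NPCs, while WT NPCs reached 70.6, 70.9 and 75.3% (difference -46.6, FDR 3.24e-12). Exons of Dscc1 (sister chromatid cohesion), Tia1 (an RNA-binding splicing regulator) and Cdk2 (a cell cycle kinase) showed the same form. Slow/slow groups overlapped for all 4, with changes of -2.8, -2.8, 1.0 and -3.7 points, against WT gains of 43.9, 39.3, 38.8 and 31.9 points.

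**Figure D5:**
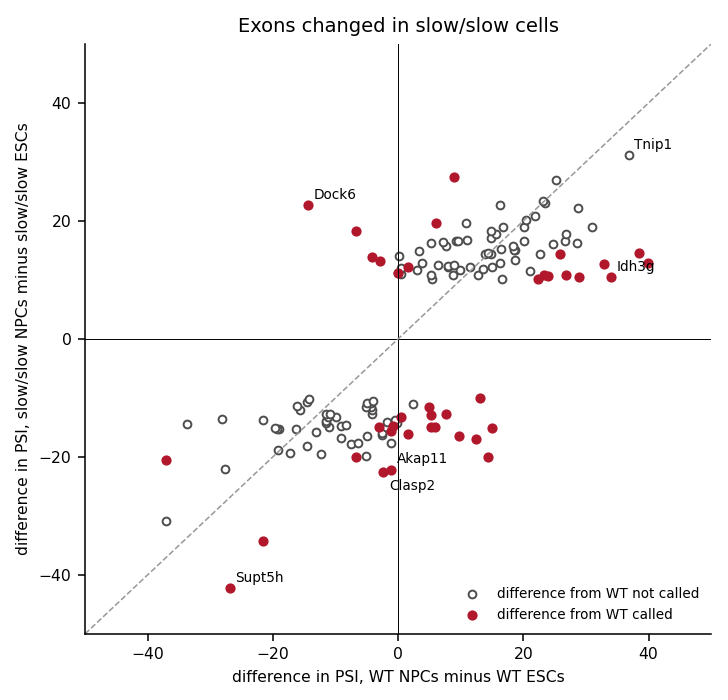
Difference in PSI from ESCs to NPCs in slow/slow cells (vertical) and WT cells (horizontal) for the 143 of the 153 exons changed in slow/slow cells that could be measured in WT. The dashed line marks equal changes, and 39 exons whose changes differed between the genotypes are filled red. No point lies within 10 points of 0 on the vertical axis, because the exons were chosen on that difference.

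Of 72276 introns measured, 86 (0.119%) changed, in 61 genes, against 226 of 75740 (0.298%) in WT, 97 of them more retained in NPCs. In slow/slow NPCs retention was higher for 23 (0.0318%), in 19 genes, and lower for 63 (0.0872%), in 42 genes. Called introns were short, with a median of 324 bases against 1126 for those measured, and several came from the same gene. Spnb3 (beta-III spectrin) had 8, all less retained, and Npr1 had 5, also all less retained. Npr1, the atrial natriuretic peptide receptor, had an intron of 175 bases at 75.3, 71.1 and 79.6% in ESCs and 15.8, 8.9 and 10.5% in NPCs (-63.6 points) and another of 243 bases that fell by 63.0. In the same libraries its expression rose by 1.29 on the log2 scale. Stk32c had the largest loss, from 100.0% in every ESC library to 13.3, 14.3 and 6.2%, with as few as 16 reads in a library and 1.15 CPM in ESCs.

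Retention rose most in Cfp, the complement factor properdin, from 20.4, 11.7 and 12.6% to 100.0, 81.8 and 100.0% (79.0 points, as few as 18 reads), in Gas2l1 (28.8 points) and in Sdr39u1 (26.9 points). Expression of Cfp fell by 2.48 on the log2 scale. Smarcd3, the BAF subunit gene, combined a fall in expression of 1.98 with 2 more retained introns (16.1 and 12.6 points). Of the 86 introns, 31 had fewer than 30 reads in a library. Alternative splice sites changed in 39 of 21958 sets (0.178%), 25 of donor and 14 of acceptor sites, against 191 of 22996 (0.831%) in WT.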

How the data were processed

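Poly(A)+ RNA was sequenced as 75-base paired-end stranded libraries and, per the study's methods and the submitters' processing notes, mapped to mm9 and processed with vast-tools. For each gene and sample the authors deposited an unnormalized read count. For each splicing event and sample they deposited PSI, a percent, with quality scores and corrected reads. Deposited RPKM means, log2 fold changes and FDR values of the authors' comparisons, and a table of pooled PSI, were not used.

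Counts of all 24 samples (totals 32974432 to 104466886) were fitted together as 8 groups in edgeR 4.0.16 under R 4.3.3, after filterByExpr and TMM scaling, and contrasts were tested by quasi-likelihood (glmQLFTest, 16 residual degrees of freedom) with Benjamini-Hochberg FDR. SE values were derived from the F statistic. The genotype comparison was the interaction contrast. A gene without a read in slow/slow ESCs was set against a floor of 3 counts over the group, for counting error only. Gene coordinates and spans came from GENCODE on GRCm38 (94.9% of genes matched by identifier).

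All 6 samples had to pass the quality limits: vast-tools coverage of LOW or better for exons and splice sites, balanced junctions for exons (not applied to 264 tested microexon events without that score), and for introns 15 reads and a deposited balance p-value not under 0.05. Replicates' beta posteriors of the reads were pooled following the vast-tools diff scheme. FDR values for the difference from WT came from limma 3.58.1 with logit-transformed read shares (pseudocount 0.5) for exons with a mean PSI of 5 to 95. Splicing coordinates in the files are mm9, so exon sequences were found in GRCm38 by gene, exon length and both flanking intron lengths, which matched 141 of the 153 called exons to 1 annotated exon. The gene fits and the exon comparison between stages were tested on simulated data. The exon difference from WT, the intron and splice site calls and the sequence matching were not.

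Members and the 30 gene lists were chosen with earlier results of these data known. Genes named were the 12 largest rises and falls with at least 5 CPM in the higher group, no overlap and a call in each fit without 1 library, the 10 largest differences from WT among genes called in both, Polr2a, and members of each list (its first entries and its largest changes). The 10 differences also required at least 5 CPM in a slow/slow group and no overlap of the slow/slow stages. Exons named were the 8 largest gains and losses, 5 largest differences from WT and called exons of 3 lists, with the 3 largest introns in each direction. Microexons, other introns and further list members named beside these were chosen after their values were seen. Some items that these rules name are not reported here. Same-numbered slow/slow ESC and NPC libraries did not deviate together (correlations -0.0186, -0.0223 and -0.0119), so numbers were not treated as pairs. P-values for genes rest on the spread between replicate libraries of the same genotype and stage, estimated over all 8 groups of the 24 samples. Those from limma rest on the same kind of spread within the ESC and NPC groups. Alternatives tried were DESeq2 1.42.0, other scalings, no filter, fewer groups, a replicate block, limma for splicing, stricter limits and leaving out each library.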

Additional observations from a re-analysis of the deposited data

Results flagged for a closer look

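The values here are differences between the slow/slow and the WT stage change on the log2 scale, each with an FDR under 0.05 in edgeR's quasi-likelihood interaction test, in which a positive value means more positive in slow/slow cells. They concern the genes named above. Group means rest on 3 libraries, and genotype cannot be told apart from the denser plating that the labels give for slow/slow cells.

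Among pluripotency and epiblast genes, differences were -1.93 for Esrrb, -1.41 for Nanog, -1.22 for Zfp42, -1.61 for Klf4, -2.07 for Prdm14 and -1.96 for Utf1. They were 3.28 for Fgf5, 1.24 for Otx2, 3.92 for Pim2, 2.42 for Dnmt3b and -1.11 for Lefty2. Zscan4d had -1.60.

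Neural progenitor and neuronal genes had 1.99 for Sox3, 0.79 for Nes, 3.93 for Cdh2, 2.91 for Meis2, 6.09 for Rfx4, 3.72 for Insm1, 3.80 for Ebf2, 0.87 for Stmn2 and 1.33 for Stmn3. Both stathmin genes fell in either genotype, and less so in slow/slow cells. Notch and retinoic acid genes had 2.01 for Dll1, 1.40 for Notch3, -0.54 for Notch1, -0.93 for Notch4, 3.90 for Crabp1, 2.03 for Crabp2 and 2.60 for Stra6. Positional genes had 3.54 for Hoxa2, 4.61 for Egr2, 1.37 for Hesx1, -1.67 for Cdx1, -1.31 for Cdx2 and -3.85 for Gsx2. Gsx2 rose by 1.14 in WT and fell by 2.71 in slow/slow cells.

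Signalling genes had -1.16 for Socs3, 1.07 for Dusp6, 3.56 for Lef1, 2.23 for Dkk1, 4.22 for Wnt8a, 4.05 for Fgf8, -3.23 for Bmp4 and 2.21 for Id2. Adhesion and guidance genes had 4.6 for St8sia2, 4.10 for Robo2, -0.74 for Nrp2 and 1.91 for Zeb2. Genes of other lineages had 2.75 for Dab2, 1.92 for Gata3, -0.97 for T and -1.47 for Mitf. Metabolic, splicing and chromatin genes had 1.05 for Slc2a1, -1.0 for Hk1, -1.39 for Pdk1, 0.69 for Ptbp2, 1.46 for Srrm4, 1.26 for Chd5, 0.79 for Chd7 and -0.56 for Smarcd3. Srrm4 changed by 0.16 in slow/slow cells, which was not called, and by -1.29 in WT.

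Other genes with extreme changes had 6.87 for Vrtn, 4.93 for Btbd17, 4.77 for Enpp2, 4.64 for Nsg2, 4.53 for 2810459M11Rik, 3.66 for Spink3, -4.35 for Ly6a, -2.71 for Aqp3, -2.02 for Pou2f3, -1.86 for Htr5a, -1.55 for Dmgdh and -1.26 for Myh13.

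For exons the difference is in PSI points, with an FDR under 0.05 in limma. It was -46.6 for Ktn1, -42.1 for Dscc1, -37.8 for Tia1, -35.6 for Cdk2 and 37.1 for Dock6. Among exons that changed in slow/slow cells it was -15.4 for Supt5h, -12.8 for Arhgap17, -20.2 for Clasp2, -21.1 for Akap11, 18.4 for Ncoa2 and 11.2 for Ptbp2.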

How the results depend on the processing

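Counts of changed genes stayed within 1.5 times of those reported under every alternative tried, except for the difference from WT, which had 7534 genes with only the groups compared and 7263 with a replicate block added to that fit, against 4091. Their shares with a more positive change were 46.7% and 46.5%, against 55.3%. The cause was not tested. With a replicate block over all 24 samples the counts were 10509 changed genes and 4328 differences, and since same-numbered libraries did not deviate together the block stands for no pairing. Leaving out 1 library gave 9486 to 9843 changed genes, 4973 to 5075 changed at least 2-fold, 3286 to 3725 differences from WT, 156 to 177 exons, 96 to 108 introns, 33 to 50 splice site sets and 273 to 316 exon differences. Stricter limits lowered the splicing counts: a 15-point limit left 73 exons, 53 introns, 17 site sets and 174 exon differences, a probability over 0.99 left 86, 46 and 16, and at least 50 reads in every sample left 38 introns and 22 site sets. Introns numbered 133 with limma and 157 with limma and a replicate block. Among named genes that were not called, leaving out 1 library moved Elf5 between -2.19 and 0.20 (without ESC library 2), Mesp1 between -0.08 (without NPC library 1) and 0.92, and Srrm4 between -0.00 (without NPC library 3) and 0.28. Ccnb1, Mcm2, Mcm4, Tubb3 and Smarca4, which were not called, passed with only the groups compared. Tmem154's difference from WT, in a gene without a read in slow/slow ESCs, lost its call in 5 fits. The median change of all genes was between 0.00 and 0.10 under the scalings tried. Low junction coverage limits the introns most.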

Other observations

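On 2 chromosomes expression differed between the genotypes at both stages. The median log2 ratio of slow/slow to WT expression was 0.50 in ESCs and 0.52 in NPCs on chromosome 8. On chromosome 15 it was -0.57 and -0.59. These medians left out genes under a minimum mean CPM in WT cells at the stage. Tested genes numbered 865 on chromosome 8 and 639 on chromosome 15. On the other chromosomes the median ratio lay between -0.11 and 0.16. Within slow/slow cells the median stage change was 0.04 on chromosome 8 and 0.07 on chromosome 15, against 0.039 over all genes. The median difference between the slow/slow and WT stage changes was 0.06 on chromosome 8 and 0.07 on chromosome 15, against 0.050 over all genes. The study's methods give a normal chromosome count by karyotyping for these ESCs, and copy number was not measured here. The part of the expression difference on these chromosomes in the comparison with WT was not tested.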
